A study of Macaca fascicularis with 23 samples.

Results

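The genes described here encode parts of epithelial cell junctions and of the apical cell surface, followed in cynomolgus monkey (Cm) pluripotent stem cells (PSCs) in 3 culture media and in cultured liver and stomach cells. The list held 9 genes chosen by name: the claudins CLDN1, CLDN3 and CLDN4, the junctional adhesion molecule F11R, the desmosomal genes DSP and PERP, the connexin GJA1, the protease TMPRSS2 and PODXL. The table analysed had 8415 genes, and 8 of the 9 were found in it, 6 by name and 2 (PERP and F11R, listed there under provisional names) by gene ID. PODXL was not analysed here. The genes were put together with their levels in the 3 media in view, so the differences between media below are a description. Where calls at a threshold are counted for them, the calls are no test of these genes and stand beside the share of all genes. The tests given for these genes compare embryonic stem cell (ESC) lines with induced pluripotent stem cell (iPSC) lines, which played no part in the choice.

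Epithelial sheets are held together by several kinds of junction. Tight junctions seal the space between cells, and their strands are built of claudins, with adhesion molecules such as F11R beside them. Desmosomes anchor keratin filaments through desmoplakin, the product of DSP, and need the membrane protein PERP for their assembly in stratified epithelia. Gap junctions let small molecules pass between cells through connexin channels, and TMPRSS2 is a serine protease of the plasma membrane found in many epithelia. Primed pluripotent cells themselves grow as an epithelial layer, and human and monkey PSCs are known to couple through the connexin that GJA1 encodes.

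The study compared 7 Cm PSC lines, 3 of them ESC lines (CMK6, CMK9 and TRSK) and 4 of them iPSC lines, from the stomach (iPS-S6 and iPS-S12) and the liver (iPS-L3 and iPS-L6) of 1 female foetus. Each line was sampled once in bFGF/KSR medium (primed), once in K5cLD medium (naïve-like) and once in K5c medium (differentiated), which gave 21 PSC libraries. K5cLD held the inhibitors and activators CHIR99021, forskolin, kenpaullone, SB590885 and Gö6983 with LIF and doxycycline (Dox), and K5c was the same mix after LIF and Dox had been withdrawn. Cells of the last 2 media carried PiggyBac vectors with Dox-inducible hKLF2 and hNANOG and a PB-EOS-GFP/puroR reporter, so a change of medium from the primed state was also a change of transgenes. In the study ESC lines with a further vector, PB-CAG-Su9DsRediN, were also made, and the iPSC lines did not receive it. Whether the ESC cells sequenced held it is not stated. All PSCs were grown without feeder cells on laminin before RNA was taken. The iPSC lines had been made with episomal vectors for a p53 hairpin, L-MYC, LIN28, KLF4, SOX2 and OCT3/4. In the study the vector that held both OCT3/4 and the p53 hairpin was still found in both liver lines and in 1 stomach line. That stomach line is given as iPS-S6 in its text and as iPS-S12 in its supplement. Cultured cells of the foetal liver and stomach, grown with hepatocyte and epidermal growth factors, gave 1 library each.

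Values are RPM, reads scaled to a library of 1000000, from SC3-seq, which sequences the 3′ ends of transcripts amplified from 1 ng of total RNA. The PSC libraries held about 861000 to 7986000 reads, the liver library 1704000 and the stomach library 3084000, and 4 PSC libraries (primed and naïve-like iPS-L6, differentiated iPS-L3 and iPS-S6) held fewer than 1000000. At these depths 3 reads correspond to 0.376 to 3.49 RPM, a limit that covers counting error only. As bulk samples, the libraries cannot tell fewer cells of a type from less RNA per cell. The libraries were numbered by condition, so a batch of preparation and the medium cannot be told apart. The pluripotency factor POU5F1 was at 32.8 to 427 RPM in primed, 137 to 575 in naïve-like and 3.59 to 69.2 in differentiated cells, and was listed at 0 in liver and stomach cells. CRIPTO, DPPA4, HESX1 and L1TD1 also had their lowest median in differentiated cells, but SOX2, LIN28A, LIN28B and DPPA2 did not. SOX2 had medians of 449, 470 and 471 RPM in primed, naïve-like and differentiated cells. The 9 pluripotency markers measured summed to medians of 1822, 2451 and 1730 RPM in the same order. The liver library, labelled only as liver, listed all 6 hepatocyte markers measured at 0, ALB and AFP among them. In it 4 of 6 mesenchymal markers were above the 3-read level with a summed level of 5587 RPM, of which COL1A2 was 4832. The stomach library had 4 of 5 stomach epithelium markers above the 3-read level (445 RPM in all) and 5 of 6 mesenchymal ones (5133 RPM in all, of which COL1A2 was 4506).

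Of the 8 genes, 6 (CLDN4, F11R, DSP, PERP, GJA1 and TMPRSS2) passed the expression filter, as 2776 genes did, by reaching a log2(RPM + 1) over 4 in 1 or more PSC libraries. CLDN1 and CLDN3 did not. Differences are on the log2(RPM + 1) scale, where the added 1 makes the change of a low gene look smaller than it was.

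CLDN1 was close to absent at this depth. Its highest value in any PSC library was 0.588 RPM, from 2 reads in primed TRSK, and 17 of 21 PSC libraries, liver and stomach listed it at 0. No library reached 3 reads, so no order of the media can be read for it.

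CLDN3, another strand-forming claudin, was low, with its highest values in primed TRSK and primed CMK9. In primed medium it ranged from 0 in iPS-S12 through a median of 2.32 RPM to 10.3 in TRSK, in naïve-like medium from 0.356 in iPS-S12 through 1.73 to 5.68 in TRSK, and in differentiated medium from 0 through 0.633 to 2.19 in TRSK. TRSK was thus the highest line in each medium, and the ranges of the 3 media overlapped. From naïve-like to differentiated medium the CLDN3 value was lower in every line, the mean being -0.81 on the log2 scale (SD of the line differences 0.42, n = 7). All 4 iPSC libraries in differentiated medium were under 3 reads, however, and iPS-L6 held 1 read in both media. In iPS-L3 and iPS-S6 the naïve-like values, 1.13 and 2.34 RPM, lay under the 3-read levels of their differentiated libraries, 3.19 and 3.18 RPM. No fall can therefore be read in the iPSC lines. In primed medium the 3 ESC lines held 2.46 to 10.3 RPM and the 4 iPSC lines 0 to 2.32 RPM, on 96 and 8 reads in all. These ranges did not overlap, as was so for 12.4% of the 2776 genes that passed the filter. The 3-read level of primed iPS-L6, 3.49 RPM, lay above the 2.46 RPM of CMK6, so the separation cannot be resolved at this depth. Liver and stomach cells listed it at 0.

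CLDN4, the third claudin measured, had its lowest levels in naïve-like cells. In primed cells it ranged from 4.12 RPM in iPS-L3 through a median of 9.99 to 27.6 in TRSK. In naïve-like cells it ranged from 0.378 RPM in iPS-L3 through 2.22 to 8.72 in iPS-S12, with 3 of 7 libraries under 3 reads. In differentiated cells it ranged from 2.66 RPM in iPS-L6 through 4.73 to 20.6 in CMK6. Every line held less CLDN4 in naïve-like than in primed medium and more again after withdrawal of LIF and Dox, although the ranges of the media overlapped. The mean difference was -1.59 (SE 0.50, lower in 7 of 7 lines) for naïve-like against primed cells and 1.26 (SE 0.50, higher in 7 of 7) for differentiated against naïve-like cells. TRSK carried the largest drop on conversion, -3.74, and CMK9 the smallest, -0.11, and without TRSK the mean was -1.24. Differentiated and primed cells were close (-0.33, SE 0.50), with 4 lines higher and 3 lower.

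F11R, which encodes the junctional adhesion molecule JAM-A, had its highest mean in naïve-like cells and its lowest after withdrawal. In primed cells it ranged from 5.31 RPM in iPS-S12 through a median of 25.9 to 63.5 in CMK9. In naïve-like cells it ranged from 24.2 RPM in iPS-L3 through 34.4 to 86.6 in CMK6, and in differentiated cells from 3.19 in iPS-L3 through 19.5 to 42.4 in CMK9. The ranges overlapped between every pair of media, since the lines differed from each other as much as the media did. Differentiated cells were below naïve-like cells in every line (mean -1.44, SE 0.49, n = 7), and the naïve-like cells were above the primed in 6 of 7 lines by 0.68 (SE 0.49). That last mean leaned on iPS-S12, whose line difference was 2.45, and was 0.38 without it. Differentiated against primed cells differed by -0.77 (SE 0.49), lower in 6 of 7 lines, with iPS-L6 at -0.03 and iPS-S12 0.97 higher. In RefSeq's T2T-MFA8v1.1 annotation F11R overlaps TSTD1, and the counting was without strand. The genes had separate values, and whether reads of either were counted for the other was not tested. TSTD1 was at 8.66 RPM in naïve-like CMK6 and 10.6 in naïve-like TRSK, and at 0 in the other 5 naïve-like libraries.

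**Figure D1:**
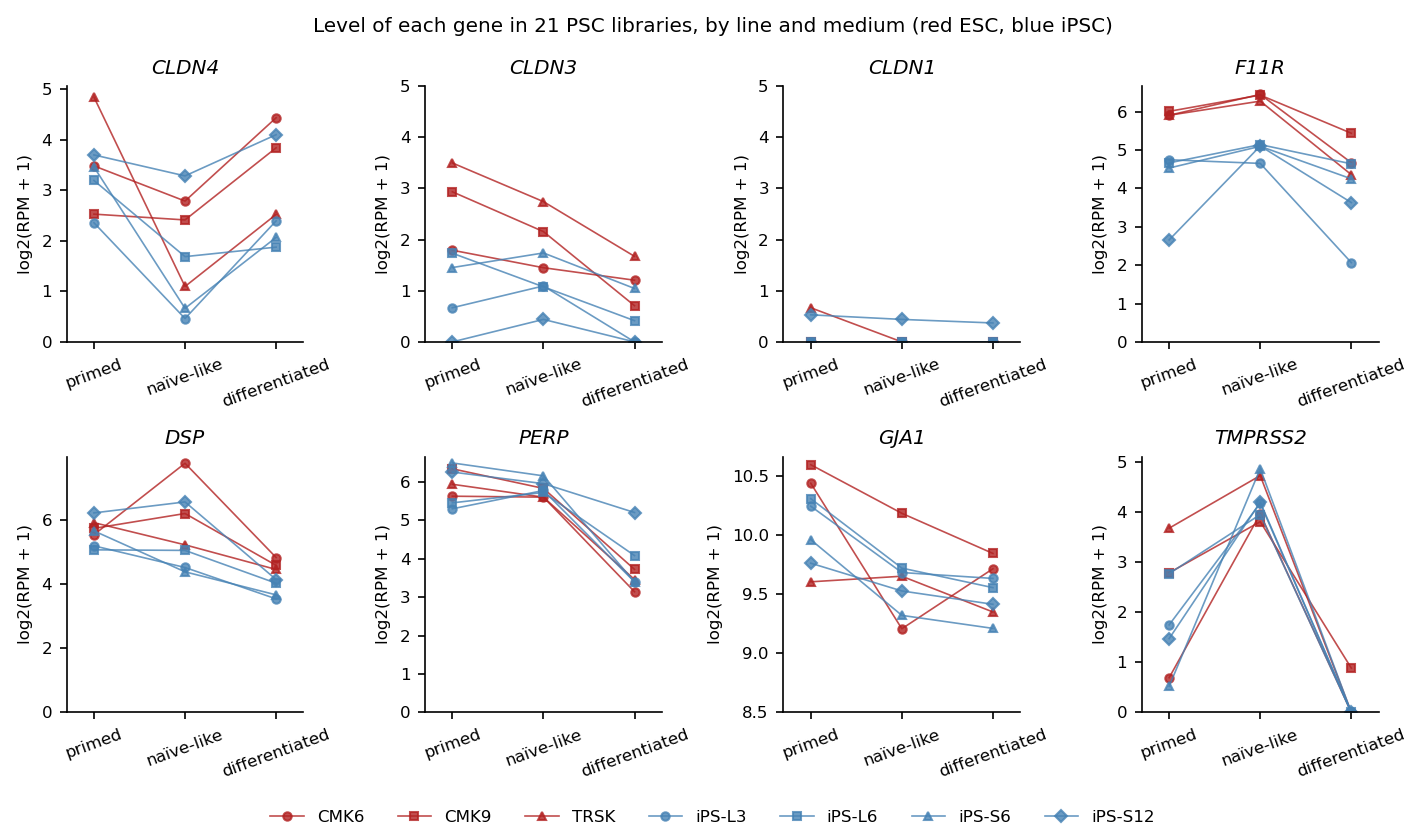
Level of each gene, as log2(RPM + 1) on the vertical axis, in the primed, naïve-like and differentiated library of each of 7 lines, with the points of a line joined (red, ESC lines; blue, iPSC lines). The GJA1 axis starts at 8.5 and the others at 0. TMPRSS2 peaks in the naïve-like medium in every line, CLDN4 has its lowest mean there, and PERP and DSP are lowest in the differentiated medium in every line.

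DSP, the desmosomal plaque gene, was at like mean levels in primed and naïve-like cells and lower in differentiated cells. In primed cells it ranged from 32.5 RPM in iPS-L6 through a median of 49.5 to 73.5 in iPS-S12, and in differentiated cells from 10.6 in iPS-L3 through 16.7 to 27.4 in CMK6, so that the highest differentiated line lay below the lowest primed one. Naïve-like cells were the most spread out, from 19.9 RPM in iPS-S6 through 36.4 to 217 in CMK6, with an SD of 1.23 on the log2 scale against 0.40 in primed cells. The difference was -1.44 (SE 0.38) for differentiated against primed cells and -1.49 (SE 0.38) against naïve-like cells, and 7 of 7 lines were lower each time. The naïve-like and primed means differed by 0.05 (SE 0.38), with 3 lines higher and 4 lower. CMK6 decided the sign of this small value: it was 2.23 higher in naïve-like medium, and the mean without it was -0.31.

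PERP, a target of p53 and p63 that desmosomes of the skin require, had nearly the same level in primed and naïve-like cells and a level several times lower after withdrawal. It ranged from 38.5 RPM in iPS-L3 through a median of 60.5 to 89.5 in iPS-S6 in primed cells, and from 47.7 in TRSK through 54.0 to 70.7 in iPS-S6 in naïve-like cells. In differentiated cells it ranged from 7.83 RPM in CMK6 through 10.0 to 35.95 in iPS-S12. No differentiated library reached the level of any primed or naïve-like library, and iPS-S12 was the line that kept the most. The difference was -2.04 against naïve-like cells and -2.15 against primed cells (SE 0.25 for both, lower in 7 of 7 lines), with single lines between -0.75 and -2.76 for the first. Naïve-like and primed cells differed by -0.11 (SE 0.25), with 2 lines higher and 5 lower.

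GJA1, the gap junction gene connexin 43, was read from 557 to 12333 reads in each PSC library, so its values are the least affected by counting error. It ranged from 777 RPM in TRSK through a median of 1211 to 1544 in CMK9 in primed cells, from 590 in CMK6 through 803 to 1161 in CMK9 in naïve-like cells, and from 591 in iPS-S6 through 751 to 918 in CMK9 in differentiated cells. CMK9 was the highest line in each medium. Against primed cells GJA1 differed by -0.52 in naïve-like cells (SE 0.15, lower in 6 of 7 lines, TRSK being the exception) and by -0.60 in differentiated cells (SE 0.15, lower in 7 of 7 lines). Naïve-like and differentiated cells differed by -0.08 (SE 0.15). GJA1 therefore differed least among the tested genes, with no difference between media beyond -0.60 on the log2 scale.

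TMPRSS2 had the largest differences between media. It ranged from 0.434 RPM in iPS-S6 through a median of 2.35 to 11.8 in TRSK in primed cells, with 2 of 7 libraries under 3 reads. In naïve-like cells it ranged from 13.0 RPM in CMK9 through 17.0 to 28.0 in iPS-S6. In differentiated cells 6 of 7 libraries listed it at 0 and CMK9 held 0.844 RPM, from 4 reads. Every naïve-like library lay above every primed one, and every primed line above its own differentiated library. The second order rests on 1 read in primed iPS-S6 and 2 reads in primed CMK6. In iPS-L3 the primed level of 2.35 RPM lay under the 3-read level of the differentiated library, 3.19 RPM. The difference was 2.29 for naïve-like against primed cells, -4.11 for differentiated against naïve-like cells and -1.82 for differentiated against primed cells (SE 0.42 for each), with 7 of 7 lines on the same side each time. Values against libraries at 0 depend on the amount added before the logarithm: with 0.1 RPM in place of 1 the last pair became -7.02 and -4.22. Measured against the level that 3 reads would give in each differentiated library listed at 0, the naïve-like level of the same line was at least 46.5-fold higher in TRSK, where the library was deepest, and at least 5.33-fold higher in iPS-L3, where it was shallow.

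Taking the 6 filtered genes as a list, 3 passed an adjusted p of 0.05 in naïve-like against primed cells (limma on log2(RPM + 1), Benjamini-Hochberg over 2776 genes; TMPRSS2 higher, CLDN4 and GJA1 lower), where 19.2% of all genes did (11.1% higher, 8.18% lower). In differentiated against naïve-like cells 4 passed, all lower (PERP, TMPRSS2, DSP and F11R), where 14.1% of all genes did (6.41% higher, 7.71% lower). In differentiated against primed cells 4 passed, all lower (PERP, TMPRSS2, DSP and GJA1), beside 13.4% of all genes (6.27% higher, 7.13% lower). Their median differences were -0.03, -1.47 and -1.10 in these comparisons, beside 0.06, -0.02 and 0.05 over all 2776 genes. Groups did not overlap for 1, 2 and 2 of the 6, beside 4.07%, 4.36% and 3.24% of all genes. Since the genes were chosen with these contrasts in view, nothing is read from the counts, and the calls, here and below, are no test of these genes. TMPRSS2 passed the expression filter through naïve-like cells alone, so its count among the filtered genes was not independent of its difference. CLDN4 passed it through primed and differentiated cells only, its highest naïve-like value being 8.72 RPM. Its calls in comparisons with naïve-like cells were therefore not independent of the filter either. The call for F11R held in 6 of 19 alternatives. It was lost with a pseudocount of 0.1, with no filter, with quantile normalization, with library centring, with no variance trend, in iPSC lines alone, and when CMK6, CMK9, TRSK, iPS-L3, iPS-L6 or iPS-S6 was left out. The call for CLDN4 in naïve-like against primed cells held in 10 of 18 alternatives. It was lost with no filter, in iPSC lines alone, without libraries under 1000000 reads, and without TRSK, iPS-L3, iPS-L6 or iPS-S6. The call for GJA1 in this comparison held in 13 of 19. It was lost without libraries under 1000000 reads and without CMK6, iPS-L3 or iPS-L6. Leaving out the 3 libraries that stood apart in an earlier account (primed iPS-S12, primed CMK9 and naïve-like CMK6) also ended it. In the ESC lines alone 0, 3 and 1 of the 6 passed in the 3 comparisons. When the fit held each line as a block, CLDN4 also passed in differentiated against naïve-like cells, which made 5. Without the libraries under 1000000 reads, 2 of the 6 (PERP and TMPRSS2) passed in each comparison with differentiated cells.

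**Figure D2:**
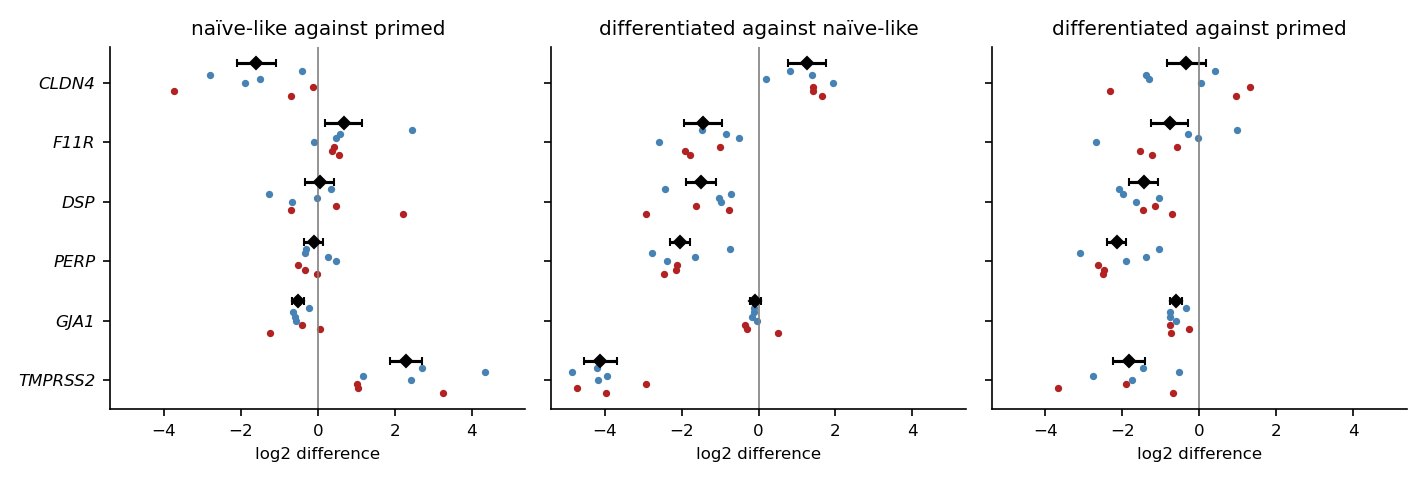
Differences between media on the log2(RPM + 1) scale (horizontal axis) for the 6 genes that passed the expression filter. Dots are the 7 lines (red, ESC; blue, iPSC) and diamonds the mean over lines with its SE from the fit. TMPRSS2 lies at 2.29, -4.11 and -1.82 from left to right, PERP at -0.11, -2.04 and -2.15, and GJA1 at -0.52, -0.08 and -0.60.

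Markers of other cell types were compared with the same media. Summed levels of 6 mesenchymal markers were 42.997 to 599 RPM in primed, 29.8 to 151 in naïve-like and 11.7 to 270 in differentiated cells, with TRSK highest in the first and the last. Summed levels of 5 trophoblast, amnion and surface ectoderm markers were 31.004 to 120, 19.0 to 78.6 and 28.2 to 132 RPM, and TP63, a defining gene of surface epithelium, was at a median of 0 in each medium. The others of this list went different ways. In the same order of media the medians were 37.2, 5.66 and 2.94 RPM for VTCN1 and 3.04, 4.43 and 9.06 for TFAP2A. For IGFBP3 they were 8.25, 5.55 and 18.3 RPM, and for TEAD3 11.8, 15.5 and 9.79. The 4 neural progenitor markers summed to 281 to 571, 96.9 to 381 and 332 to 698 RPM. The 2 endoderm markers measured, EOMES and PRDM1, summed to 2.25 to 27.9, 1.14 to 10.8 and 0 to 4.38 RPM, with medians of 17.3, 5.89 and 0.728. The ranges of these lists overlapped between media, and their part in the values above was not tested.

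Junction and surface genes outside the list moved in both directions. Of 198 such genes on 7 lists (tight junction, adherens junction, desmosome and hemidesmosome, gap junction, apical polarity and surface, membrane serine proteases, epithelial keratins and regulators), 68 were in the table and 26 passed the filter. These lists were put together with earlier results of the data known. Of the 26, 3 rose and 4 fell in naïve-like against primed cells, 2 rose and 2 fell in differentiated against naïve-like cells, and 2 rose and 3 fell in differentiated against primed cells. Their median differences were -0.03, -0.17 and -0.39. With each line as a block, 7, 7 and 10 of the 26 passed, beside 26.1%, 19.8% and 21.1% of all genes. No difference between the 26 and all genes was tested. ELF3, MAGI2 and ILDR2 passed the filter through 1 medium alone, the one in which each was highest, so the tests below were not independent of the filter for them, and p-values from the fit of all genes without the filter are given beside theirs.

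In naïve-like cells, ELF3, an epithelium-specific ETS transcription factor, rose by 2.43 on the log2 scale (SE 0.67, limma adjusted p = 0.0144, 7 of 7 lines), from a median of 0.886 RPM to 6.91, with CMK6 highest at 81.7 (limma adjusted p = 0.0325 without the filter). PROM1, a pentaspan protein of apical membrane protrusions, rose by 0.94 (SE 0.30, limma adjusted p = 0.0297 and 0.0696 without the filter, 7 of 7 lines). JAM2, a relative of F11R among the junctional adhesion molecules, rose by 0.66 (SE 0.19, limma adjusted p = 0.0188, 6 of 7 lines), from 20.3 to 44.1 RPM in primed cells to 24.9 to 66.3 RPM. The scaffold genes MAGI2 and MAGI1 fell by 2.18 and 1.06 (limma adjusted p = 0.0119 and 0.0228, in 5 and 6 of 7 lines; 0.0280 and 0.0509 without the filter). The adherens junction genes PVRL3 (nectin-3) and MLLT4 (afadin, its cytoplasmic partner) fell by 0.65 and 0.60 (limma adjusted p = 0.0254 and 0.00610, in 6 and 7 of 7 lines). MLLT4 lay outside the rule for named genes and was added after its values were seen. Leaving out 1 line ended the call for ELF3 (CMK6 or iPS-S12), JAM2 (TRSK or iPS-S6), PROM1 (TRSK, iPS-L3 or iPS-S12), MAGI2 (iPS-L6), MAGI1 (CMK6, CMK9, iPS-L6 or iPS-S6) and PVRL3 (CMK6, CMK9 or iPS-S12).

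After withdrawal of LIF and Dox, ELF3 fell by 3.02 (SE 0.67, limma adjusted p = 0.00377, 7 of 7 lines) to a median of 0 RPM (limma adjusted p = 0.0104 without the filter). CGN, which encodes the tight junction plaque protein cingulin, fell by 0.71 (SE 0.20, limma adjusted p = 0.0214, 7 of 7 lines). SHROOM3, an actin organiser of apical constriction, rose by 0.92 (SE 0.21, limma adjusted p = 0.00429, 7 of 7 lines), from a median of 36.6 to 72.1 RPM. ILDR2, of the angulin family of tricellular junction proteins, rose by 1.63 (SE 0.50, limma adjusted p = 0.0318, 7 of 7 lines), a call lost without the filter (limma adjusted p = 0.0752). Against primed cells, ILDR2 and JAM2 rose by 1.90 and 0.94 (limma adjusted p = 0.0126 and 0.00181, and 0.0369 and 0.00409 without the filter), and DST, CGN and PVRL3 fell by 1.09, 0.64 and 0.63 (limma adjusted p = 0.0442, 0.0380 and 0.0346, and 0.100, 0.0576 and 0.0663 without the filter, where all 3 calls were lost). ILDR2 lost its first call without CMK6, TRSK, iPS-L6 or iPS-S12, and CGN without CMK6 or TRSK. Against primed cells the falls of CGN, DST and PVRL3 each lost the call when any of 5 lines was left out, whereas ELF3 and SHROOM3 above and both rises against primed cells held without any single line.

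**Figure D3:**
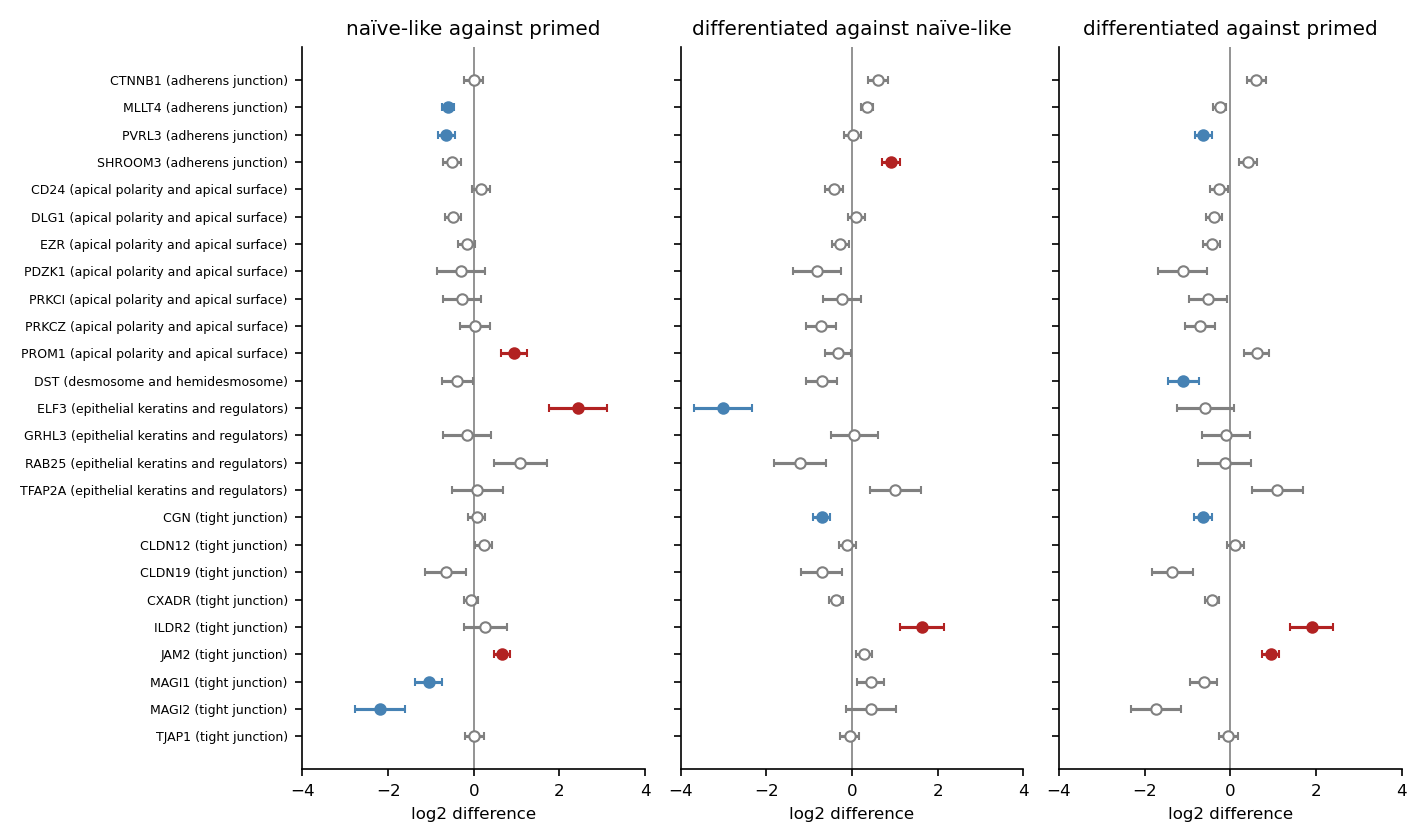
Differences between media on the log2(RPM + 1) scale (horizontal axis, bars are the SE of the fit) for 25 of the 26 junction and surface genes outside the list of 9, grouped by list. Red marks genes that rose and blue genes that fell at an adjusted p of 0.05 over all genes; open grey circles did not pass. ELF3 is 2.43 higher in naïve-like than in primed cells and 3.02 lower in differentiated than in naïve-like cells.

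Few of the other claudins, connexins and TMPRSS genes in the table passed the expression filter, although some were read below it. Of 12 claudins in the table, CLDN12 and CLDN19 passed the filter beside CLDN4, and 5 of the 9 not on the list never reached 3 reads in a PSC library. CLDN12 reached 3 reads in all 21 PSC libraries and CLDN11, which did not pass the filter, in 13. Of the 11 connexins not on the list, 4 never reached 3 reads. CLDN12 did not pass the test in any comparison of media (limma adjusted p = 0.457, 0.778 and 0.742). CLDN19 was lower in differentiated than in primed cells in 7 of 7 lines by 1.36 (SE 0.48), short of the threshold (limma adjusted p = 0.0593). It passed the filter through primed cells alone, with a highest value of 15.1 RPM in primed iPS-L6, so this test was not independent of the filter. None of the 8 other TMPRSS genes passed, the highest value being 2.05 RPM for TMPRSS11F. The lists held 9 membrane serine proteases and inhibitors in the table, none of which passed the filter.

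The ESC and iPSC lines were then compared, to ask whether the level of a gene or its response to a medium differed with the kind of line. The 4 iPSC lines share a foetus and the ESC lines do not, so the kind of line cannot be told apart from the animal it came from. If the ESC cells sequenced held PB-CAG-Su9DsRediN, it cannot be told apart from that vector either in naïve-like and differentiated cells. In a fit of 6 groups, no gene of 2776 passed the test of a different response to naïve-like medium (limma; 133 genes at an unadjusted p under 0.05) or to withdrawal (109 genes), and without the expression filter 8 and 5 genes did. Among the listed genes DSP differed most in its response to naïve-like medium, 0.67 ± 1.47 (SD, n = 3 ESC lines) against -0.41 ± 0.72 (SD, n = 4 iPSC lines), a difference of 1.07 (SE 0.67) at a limma adjusted p of 0.9995. All 6 genes had adjusted p-values of 0.999 or more in both tests, and with SEs of 0.31 to 1.00 a difference of that size was not detectable with 3 and 4 lines.

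Within each medium F11R was higher in the ESC lines. In primed cells the ESC lines held 59.1 RPM (CMK6), 59.1 (TRSK) and 63.5 (CMK9) and the iPSC lines 25.9 (iPS-L3), 24.4 (iPS-L6), 22.1 (iPS-S6) and 5.31 (iPS-S12), with no overlap. In naïve-like cells the ESC lines held 86.6, 76.5 and 85.5 RPM and the iPSC lines 24.2, 34.4, 33.3 and 33.5 in the same order of lines, again with no overlap. In differentiated cells 24.5, 19.5 and 42.4 RPM stood against 3.19, 24.0, 18.05 and 11.4, and the groups overlapped through iPS-L6. The differences on the log2 scale were 1.79 (SE 0.48), 1.39 (SE 0.48) and 1.18 (SE 0.48), and none passed over all genes (limma adjusted p = 0.0613, 0.296 and 0.292). Of all genes 1.59%, 0.72% and 0.612% passed in these comparisons, and 12.4%, 11.6% and 11.5% of them had groups that did not overlap. The value in primed cells passed with quantile normalization (limma adjusted p = 0.0498), without iPS-L3 (0.0290) and without libraries under 1000000 reads (0.0467), within a range of 0.0290 to 0.269 over the alternatives. TSTD1, which overlaps F11R in RefSeq's annotation, was at 0 to 1.18 RPM in primed ESC lines and 0 to 0.869 in primed iPSC lines. In naïve-like cells it was at 8.66 RPM in CMK6, 10.6 in TRSK and 0 in CMK9, and at 0 in the iPSC lines. In differentiated cells it was at 3.59 RPM in CMK6, 4.01 in TRSK and 0.211 in CMK9, and at 0 to 0.333 in the iPSC lines. The part of TSTD1 in the difference was not tested.

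Among the 6 filtered genes DSP was the other with groups that did not overlap, in differentiated cells only. There the ESC lines held 20.9 to 27.4 RPM and the iPSC lines 10.6 to 16.7 RPM, a difference of 0.78 (SE 0.48, limma adjusted p = 0.488). In naïve-like cells the DSP difference was 1.27 (SE 0.48, limma adjusted p = 0.320), with overlap, and it passed without iPS-S12 (limma adjusted p = 0.0378, within a range of 0.0378 to 0.846 over the alternatives). PERP, TMPRSS2, CLDN4 and GJA1 had limma adjusted p-values between 0.488 and 0.968 in the 3 media. None of the 6 genes passed in any medium.

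**Figure D4:**
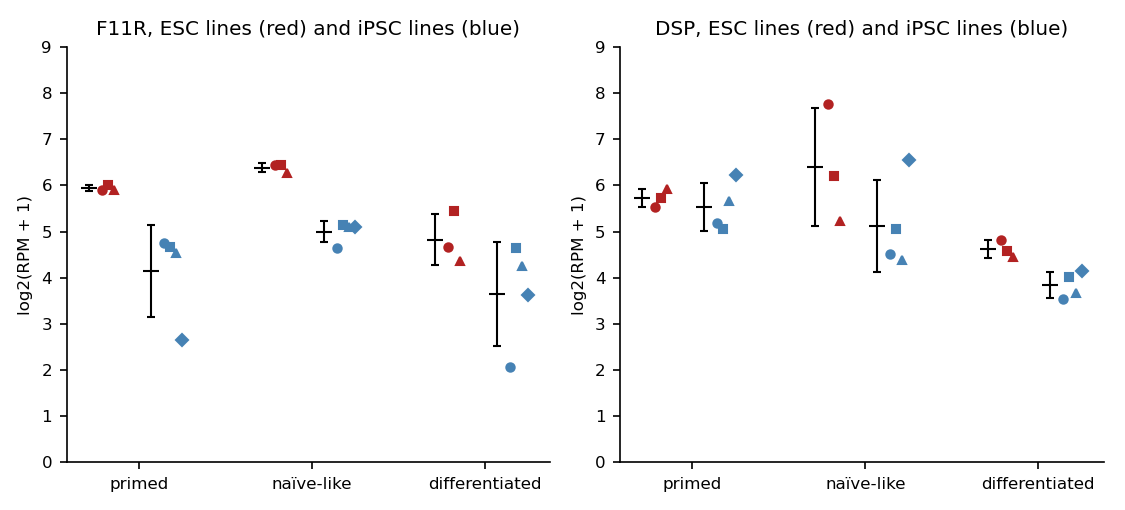
F11R (left) and DSP (right) as log2(RPM + 1) in 3 ESC lines (red) and 4 iPSC lines (blue) in each medium, with the mean and SD of each kind of line in black beside its points; symbols mark single lines as in the plot of levels by medium. F11R of the ESC lines lies above that of the iPSC lines without overlap in primed and naïve-like cells, and DSP in differentiated cells.

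The genes whose pattern over the 21 PSC libraries was most like each listed gene were found by Pearson's r of log2(RPM + 1) among the 2776 genes. The points share lines and media, so r is a description. TMPRSS2 was most like HESX1, a homeobox gene of pluripotent cells, and CRIPTO, the Nodal coreceptor, with r of 0.93 and 0.88, and Spearman's rho gave the same pair. Both had means that followed TMPRSS2 through the media, HESX1 at 3.45, 5.76 and 0.79 and CRIPTO at 4.90, 6.74 and 1.14 on the log2 scale in primed, naïve-like and differentiated cells. PERP was most like RNPEP, an aminopeptidase gene (r = 0.87), and NFE2L3, a bZIP transcription factor gene (r = 0.85). CLDN4 was most like LMNA, which encodes lamins A and C, and S100A11 (r = 0.78 and 0.77), both with their lowest mean in naïve-like cells. DSP was most like SUN1, a nuclear envelope gene (r = 0.87), and ITPR3 (r = 0.81). GJA1 was most like FAM131B (r = 0.86) and RABGAP1L (r = 0.81), and F11R like EXOSC7 (r = 0.83) and FCGR2B (r = 0.80). Ranked by rho, the first 2 were shared in 1 gene for PERP, DSP, F11R and GJA1 and in none for CLDN4.

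The cultured liver cells held few of these transcripts. PERP was at 0.587 RPM (1 read) against 38.5 and 42.997 in the 2 primed iPS-L lines, F11R at 1.17 (2 reads) against 25.9 and 24.4, and GJA1 at 18.2 (31 reads) against 1211 and 1266. The differences from the mean of the 2 lines were -4.72, -3.59 and -6.01 on the log2 scale. DSP was an exception, at 23.5 RPM (40 reads) against 35.6 and 32.5. TMPRSS2, CLDN1 and CLDN3 were listed at 0 and CLDN4 was at 2.93 RPM (5 reads). Of 4 genes above the filter in these libraries, 3 were at least 2 lower, beside 10.3% of 2408 genes, in single libraries with no test.

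The cultured stomach cells held most of them, some at levels above any PSC library. TMPRSS2 was at 48.6 RPM (150 reads) against 0.434 and 1.77 in the 2 primed iPS-S lines, CLDN4 at 48.6 RPM (150 reads) against 9.99 and 11.96, and F11R at 49.7 RPM (153 reads) against 22.1 and 5.31. The differences were 4.64, 2.06 and 2.07 on the log2 scale, and for F11R the difference was 0.74 against all 7 primed lines. PERP at 71.0 RPM, DSP at 37.3 and GJA1 at 510 lay within 0.86 of the iPS-S lines, and CLDN1 and CLDN3 were listed at 0. Of 6 genes above the filter, 3 were at least 2 higher, beside 6.74% of 2448 genes, again in single libraries with no test. The stomach epithelium gene CLDN18, at 188 RPM in the stomach library and 0 in every PSC library, the trefoil factors TFF1 and TFF2, at 89.5 and 166 RPM, and TMPRSS2, CLDN4 and F11R were high in the same library, and the part of the epithelial cells in it was not tested.

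**Figure D5:**
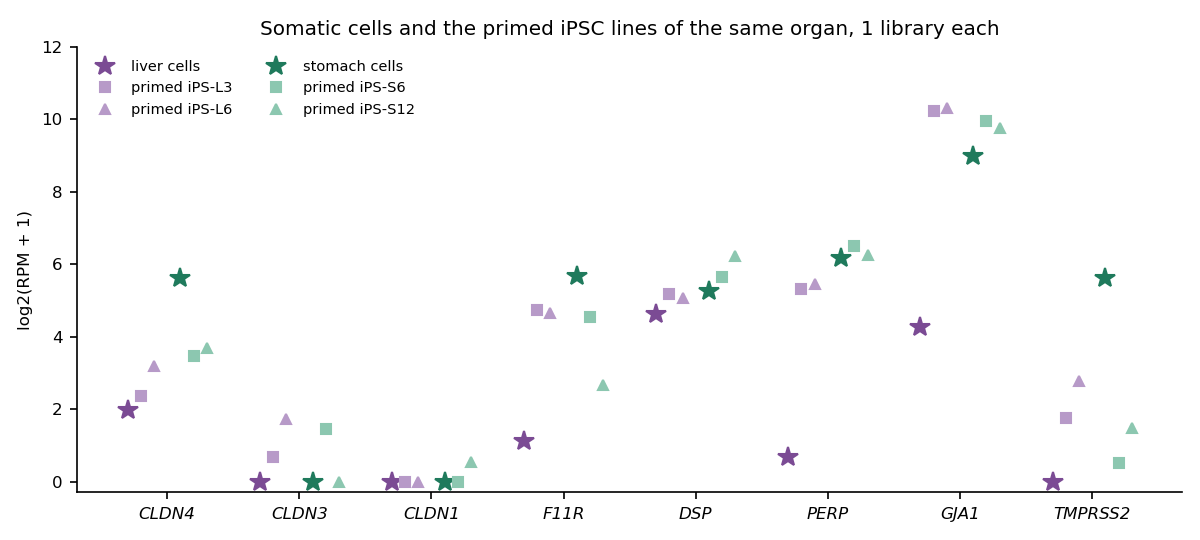
Each listed gene as log2(RPM + 1) in cultured liver cells (purple star) and stomach cells (green star) beside the 2 primed iPSC lines derived from each organ (squares and triangles), 1 library each. Liver cells lie below their lines for PERP, F11R and GJA1, and stomach cells above theirs for TMPRSS2, CLDN4 and F11R.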

How the data were processed

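SC3-seq values of 23 libraries were taken from the table of RPM that the authors deposited. Per the study's methods and the submitters' processing notes, reads of 75 bp were trimmed (cutadapt 1.3), mapped (TopHat 1.4.1) and converted to expression levels without strand (Cufflinks 2.2.0). The genome build is not given in the sources used here apart from a table name, so no coordinates are printed. The deposited table had 8416 lines, the last 1 incomplete and not used. The genes of the table held 24.8 to 27.5% of each library's RPM, and 87.2 to 92.9% of the values in a library were whole multiples of 1 read within 0.01, too few for a count test. The depth of each library was read from that step.

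Values were analysed as log2(RPM + 1). Genes above 4 in at least 1 PSC library (2776) were fitted with limma 3.58.1 (R 4.3.3) with a mean-variance trend, 3 media in 1 fit, and Benjamini-Hochberg adjustment over all of them at 0.05; a second fit had 6 groups (kind of line by medium). The scripts were tested on simulated data. Each line was sampled in every medium, and samples of the same line deviated together (mean r of 0.269 over 21 pairs, lowest 0.0304, highest 0.561, against -0.0446 over 126 pairs of different lines). The line as a block was an alternative, since the study's methods name no test for these data. Each line and medium had 1 library, so p-values measure the spread between lines. Somatic libraries had no replicate: a gene was counted as past the fold at 2 on the log2 scale from the mean of the 2 primed iPSC lines.

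The 9 genes and all lists were chosen with earlier results of these data known. Genes of the other lists were named by a rule: in each comparison of media the 3 of largest rise and the 3 of largest fall among those past the threshold. For each listed gene the 2 genes with the highest r were named. PERP and F11R were matched through RefSeq's gene IDs (assembly T2T-MFA8v1.1), which paired 5564 genes. Alternatives were other pseudocounts, filters and normalizations, the block, fits of 2 media, and fits without single lines, shallow libraries, 3 libraries that stood apart in an earlier account (primed iPS-S12, primed CMK9 and naïve-like CMK6), or 1 kind of line. Figures were drawn with matplotlib 3.10.9. The values of 1 gene of the other lists are not reported here.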

Additional observations from a re-analysis of the deposited data

Results flagged for a closer look

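Of 21 groups of 7 libraries examined (7 listed genes that varied, in 3 media), 1 held a library far from the others by Dixon's criterion, where chance gives about 1 in 20, or 1.05. In differentiated cells TMPRSS2 was at 0.844 RPM (4 reads) in CMK9 and at 0 in the other 6 lines, so the gap was the whole range (a ratio of 1). With 6 libraries at 0 any value above 0 in the last gives this ratio, and the shallow libraries could not have shown a level this low.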

How the results depend on the processing

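The differences of the listed genes between media kept their size within 1 SD between lines in 334 of 336 alternative values, and the other 2 were those of TMPRSS2 given above with a pseudocount of 0.1. Of 452 values for the kind of line, 419 kept their direction and their side of the threshold. Of 280 values for the named genes of the other lists, 87 were no longer past the threshold and none changed direction. The cause of the shifts was not tested. Depth limits CLDN1, CLDN3, naïve-like CLDN4 and differentiated TMPRSS2, which rest on few reads.

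With the cell line as a replicate block, 724, 550 and 585 genes passed in naïve-like against primed, differentiated against naïve-like and differentiated against primed cells, with 7, 7 and 10 genes of the other lists; the block changed no other call of a listed gene than that of CLDN4. In the same order, ESC lines alone gave 15, 81 and 76 genes (0, 0 and 1 of the lists), iPSC lines alone 2, 1 and 1 of the lists, with 160 genes for differentiated against naïve-like cells. Without libraries under 1000000 reads, 218 genes passed for differentiated against primed cells, with 2 of the lists, and 4 of the lists for naïve-like against primed cells; with no filter 2 of the lists passed for differentiated against primed cells, and with the filter met in 7 libraries 2 for differentiated against naïve-like cells. Leaving out 1 line gave 302 to 527, 219 to 342 and 241 to 392 genes, and 4 to 6, 2 to 4 and 2 to 8 of the lists.

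Between ESC and iPSC lines, 44, 20 and 17 genes passed in primed, naïve-like and differentiated cells. Without libraries under 1000000 reads these were 20, 10 and 2, without the 3 libraries that stood apart 29 in primed and 32 in differentiated cells, and with no filter 38 in naïve-like cells. Leaving out 1 line gave 15 to 46, 7 to 31 and 4 to 112 genes, the last without iPS-S12. The responses gave 8 and 5 genes with no filter and 0 without any single line. At least 1 on the log2 scale from the iPSC lines were 902 genes in liver and 828 in stomach cells.

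Values between ESC and iPSC lines that changed sign never passed the test. Without libraries under 1000000 reads, PERP in primed cells became -0.048 and the withdrawal responses of CLDN4 and GJA1 became -0.016 and -0.019. With library centring the withdrawal response of GJA1 became -0.012. Without the 3 libraries that stood apart, GJA1 in primed cells became -0.15, the responses to naïve-like medium became -0.93 (CLDN4), 0.10 (F11R) and 0.50 (GJA1), and those to withdrawal 0.20 (DSP) and -0.17 (GJA1). Leaving out 1 line gave, in primed cells, PERP from -0.10 to 0.30, CLDN4 from -0.17 to 0.98 and GJA1 from -0.047 to 0.45, and in naïve-like cells TMPRSS2 from -0.41 to 0.059 and GJA1 from -0.13 to 0.35. The responses to naïve-like medium ran from -0.57 to 1.25 (CLDN4), -0.72 to 0.13 (F11R) and -0.31 to 0.32 (GJA1), and those to withdrawal from -0.65 to 0.022 (PERP), -0.049 to 0.85 (TMPRSS2), -0.99 to 0.092 (DSP), -0.62 to 0.072 (F11R) and -0.21 to 0.21 (GJA1).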
